A study of Homo sapiens with 2 samples.

Results

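The genes described here are 10 regulators that are widely used as markers of stemness: SOX2, POU5F1, NANOG, SALL4, KLF4, MYC, LIN28A, LIN28B, SOX9 and SOX4. They were taken as a fixed list out of 19866 protein-coding records in RefSeq's gene table (GRCh38.p14, named hg38 in the peak list's processing). For each gene the peak summits inside its record, within 1 kb of an end of it and within 100 kb of it were collected from a single list of 26642 peaks. All 10 were found in the table, and 35 summits lay within 100 kb of 1 of them. All but LIN28A and LIN28B encode transcription factors, and those 2 encode RNA-binding proteins.

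The peaks come from CAL-27 cells, an established line of human tongue squamous cell carcinoma, grown as spheres. Growth as spheres is commonly used to enrich tumour cells with stem-like traits. The study has 1 library pulled down with antibody to TCF4 and 1 with IgG, of which the latter is not analysed here. Both groups are the same cell line, no further treatment or time is labelled, and whether TCF4 means the E protein of that symbol or TCF7L2, the beta-catenin partner that shares the name, was not given in the sources used here. With 1 library a group there is no replicate check and no test of any difference below, and peaks that do not depend on the antibody were not separated from TCF4 binding. Summits within 1 kb of an end were found for 7 of 8 squamous and general epithelial marker genes. The 8 were KRT5, KRT14, KRT6A, TP63, ITGA6, LAMB3, CDH1 and EPCAM, and the exception, TP63, had 2 inside. Among markers of other cell types the count was 1 of 4 for leukocytes (CD14) and 0 of 3 each for hepatocytes, fibroblasts and endothelium, beside 41.5% of all protein-coding records. Summits inside the record were found for 7 of the 8 epithelial and 2 of 4 leukocyte markers. The count was 1 of 3 each for fibroblasts and endothelium and 0 of 3 for hepatocytes, beside 39.0% of all records. With 3 to 8 genes a list such counts say little, and a peak is no measure of expression.

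SOX2, POU5F1 (also called OCT4) and NANOG form the core circuit of pluripotent cells, in which the 3 factors bind their own and each other's enhancers, and SALL4 works with them. KLF4 and MYC complete, with SOX2 and POU5F1, the classical set of reprogramming factors. LIN28A and LIN28B block the maturation of let-7 microRNAs, which restrain MYC and other growth genes. SOX9 and SOX4 act in epithelial progenitors, and SOX2 is also a lineage factor of squamous epithelium and its tumours. Proteins called TCF4 are read out through short DNA motifs, the E-box CANNTG for the E protein and CTTTGAA or CTTTGAT for the TCF/LEF family.

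The windows before the transcript starts show where peaks and starts met. The RefSeq promoter table (GRCh38.p14) holds windows for SOX2, NANOG, KLF4, SOX4 and LIN28B, the last with a pair of starts, and has no entry for POU5F1, MYC, LIN28A, SALL4 and SOX9. The 250 bases before a start are printed 5′ to 3′ on the gene's strand, with each E-box in capitals. The first LIN28B window is shown because a peak covers all of it. The KLF4 window is shown because a peak lies just beyond it, and the other LIN28B start, SOX2 and SOX4 are shown as windows with no peak.
LIN28B, first start, chr6:104940715-104940964, plus strand: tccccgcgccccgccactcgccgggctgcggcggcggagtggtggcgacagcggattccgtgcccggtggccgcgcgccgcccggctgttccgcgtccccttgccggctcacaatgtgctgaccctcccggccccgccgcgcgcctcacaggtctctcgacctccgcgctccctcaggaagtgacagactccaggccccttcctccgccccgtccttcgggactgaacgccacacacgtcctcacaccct
LIN28B, second start, chr6:104956857-104957106, plus strand: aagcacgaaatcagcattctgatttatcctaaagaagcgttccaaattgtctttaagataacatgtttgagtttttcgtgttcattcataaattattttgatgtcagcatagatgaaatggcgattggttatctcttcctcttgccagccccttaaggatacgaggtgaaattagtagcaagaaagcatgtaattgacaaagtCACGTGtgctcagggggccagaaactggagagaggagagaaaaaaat
KLF4, chr9:107489770-107490019, minus strand: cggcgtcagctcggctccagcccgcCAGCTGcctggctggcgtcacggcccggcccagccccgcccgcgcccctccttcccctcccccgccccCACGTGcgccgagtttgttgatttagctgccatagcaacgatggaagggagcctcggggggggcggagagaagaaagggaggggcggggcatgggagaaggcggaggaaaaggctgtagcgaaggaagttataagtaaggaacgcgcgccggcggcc
SOX2, chr3:181711675-181711924, plus strand: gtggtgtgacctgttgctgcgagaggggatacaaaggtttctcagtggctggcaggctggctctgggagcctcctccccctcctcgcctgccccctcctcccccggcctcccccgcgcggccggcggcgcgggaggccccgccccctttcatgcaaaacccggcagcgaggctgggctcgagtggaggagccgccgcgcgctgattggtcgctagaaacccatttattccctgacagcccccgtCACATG
SOX4, chr6:21593501-21593750, plus strand: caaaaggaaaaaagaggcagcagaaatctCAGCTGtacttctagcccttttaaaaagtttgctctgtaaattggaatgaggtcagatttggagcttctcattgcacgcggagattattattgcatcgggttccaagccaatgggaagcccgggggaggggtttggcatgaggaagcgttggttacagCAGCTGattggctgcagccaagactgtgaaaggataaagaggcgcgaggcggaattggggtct

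The only one of these starts with a peak over its window was the first of LIN28B, whose summit fell on base 105 of the printed sequence, 146 bp before the start. That sequence holds no E-box, and neither does the NANOG window, which is not printed and had no peak. The windows of SOX4, with the same E-box CAGCTG at bases 30 and 188, of SOX2, with CACATG at base 245, and of the second LIN28B start, with CACGTG at base 204, held E-boxes and no peak. KLF4 has CAGCTG at base 26 and CACGTG at base 94, and its nearest summit lay 541 bp before the start, beyond the printed bases.

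Over the full windows of 300 bases, 250 before and 50 after the start, CANNTG was found in 4 of the 6 member windows and in 65.1% of all 22199 windows of protein-coding genes in the table. The TCF/LEF letters CTTTGAA and CTTTGAT, searched on both strands, were found in none of the 6, against 3.61% and 1.98% of all windows, and the AP-1 letters TGANTCA in none against 6.15%. The GC box GGGCGG was found in 3 of the 6, the windows of SOX2, KLF4 and the first LIN28B start, against 56.3%. Among all windows overlapped by a peak, 57.0% held CANNTG and 80.1% held GGGCGG, against 68.8% and 45.3% of the windows with none. The TCF/LEF letters, in the order above, were found in 1.76% and 1.02% of windows with a peak, against 4.46% and 2.43% with none. For the AP-1 letters these shares were 4.34% and 6.99%. Of the letters searched, only the GC box was more frequent in windows with a peak, so these shares do not tell the possible TCF4 proteins apart. The shares were not matched for GC share, and they come from fixed windows and not from the sequence under the peaks. A match of letters is a description of the window and not a binding site.

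Base composition of the windows moved with the presence of peaks across the genome. Of the windows in the lowest quartile of GC share (6.67 to 53.0%), 4.65% were overlapped by a peak (Wilson 95% interval 4.13 to 5.22%), against 48.0% (46.7 to 49.3%) in the highest quartile (70.3 to 94.0%). SOX4 (49.3% GC), NANOG (46.7%) and the second LIN28B start (39.0%) lay in the lowest quartile. SOX2 (63.3%) and KLF4 (69.0%) lay in the next to highest, where 45.5% of windows had a peak, and the first LIN28B start (73.0%) lay in the highest. By gene, 1 of the 5 members with an entry had a window overlapped by a peak, beside 37.5% of 15843 protein-coding genes. What part GC share plays in the members' pattern was not tested.

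**Figure D1:**
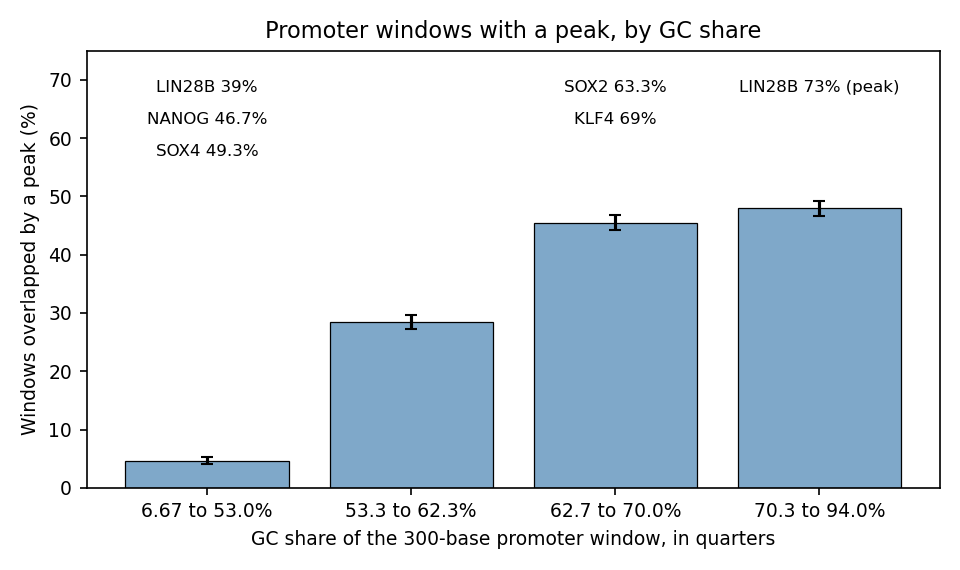
Bars give the share of all promoter windows of protein-coding genes that a peak overlaps (%, with Wilson 95% intervals) by quartile of GC share, and the names above them place the 6 member windows with their GC share. The first LIN28B start, at 73.0% GC, is the member window with a peak, and 3 of the 6 sit in the lowest quartile, where 4.65% of windows have a peak.

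The peaks at the ends of these genes were low in fold and −log10 q. A summit within 1 kb of a record end was found for 2 of the 10, POU5F1 and KLF4 (20%, Wilson interval 5.67 to 51.0%), against 41.5% of all protein-coding records. The interval holds the background share, so with 10 genes the lower share is within counting error. Over all records the share differed with the number of other protein-coding records within 100 kb. It was 24.3% with 0 such neighbours (the band of SOX2, KLF4, MYC and SOX9) and 35.3% with 1 to 2 (SALL4 and SOX4). With 3 to 5 (LIN28B and NANOG) it was 42.2%, and with 6 to 10 (LIN28A and POU5F1) 47.2%. The POU5F1 summit lay 489 bp inside the high-coordinate end, and the KLF4 summit 541 bp outside its high-coordinate end. The next nearest summits to an end, outside the 1 kb limit, lay at 2313 bp for SOX9, 2459 bp for LIN28A and 3288 bp for LIN28B. Neither end peak reached a −log10 q of 5, a level met at an end by 27.4% of all records, and with a window of 500 bp only that of POU5F1 remained.

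A summit inside the record was found for 4 of the 10, POU5F1, LIN28A, LIN28B and SOX9, against 39.0% of all records. LIN28B held 3 of the 6 such summits, in a record of 146307 bp, while the other 3 genes had 1 each. The shares over all records were not matched for record length. At a −log10 q of at least 5 the count fell to 2 genes, LIN28A and LIN28B, against 20% of all records. A summit within 100 kb was found for 9 of the 10, all but SOX4, against 85.1% of all records, so this share was near the background. The nearest summits beyond that limit lay at 100783 and 101485 bp from POU5F1 and at 101583 bp from LIN28A, and the farthest within it at 77445 bp from LIN28B. At a −log10 q of at least 5 the count was 5 of the 10, against 69.3% of all records.

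SOX2, the single-exon gene of the core circuit, had no peak in its record (chr3:181711925-181714436) or at its ends. Its 2 summits within 100 kb lay 16432 bp below and 4975 bp above the record, both inside the long non-coding RNA gene SOX2-OT, which surrounds SOX2. Fold enrichment is taken here as the ratio of fragments at the summit to the local background, each with 1 added. The deposited value was 4.14 for the first summit and 3.72 for the second. They rested on 6 and 5 fragments, and an exact Poisson interval for 5 runs from 1.62 to 11.7. Both stood low in the whole list, at the 18.8th and 7.32th percentile of fold, and no further summit was met within 250 kb. The whole SOX2-OT record held 4 summits, none at its ends, with a highest fold of 6.28.

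POU5F1 (chr6:31164337-31170682), the POU factor of the circuit, lies in the gene-dense major histocompatibility region and had 9 summits within 100 kb. The summit in its own record, under a peak from 31169905 to 31170217, showed 12 fragments and a fold of 4.19 over a local background of 2.11. It was the weakest of the 9 by fold. The strongest, with a fold of 13.7 on 47 fragments (interval 34.5 to 62.5), lay 6033 bp below the gene between the ends of CCHCR1 and TCF19, at the 98.7th percentile of all peaks.

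Above POU5F1 lay 4 summits on non-coding RNA genes for which POU5F1 was the nearest protein-coding record. A peak at an end of PSORS1C3, 15499 bp away, had a fold of 10.4 on 19 fragments. The RNA gene HCG27 held the other 3, at 27221, 32194 and 32776 bp, with folds of 7.04, 4.93 and 6.62. In this neighbourhood the highest folds were at the ends of other genes. The remaining summits were at the paired ends of PSORS1C1 and CDSN (fold 5.75, 49629 bp) and between POU5F1 and HLA-C (7.87 at 73803 bp and 5.35 at 75415 bp).

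NANOG (chr12:7789402-7799146), the homeodomain factor of the circuit, had no summit in or at the record and 1 within 100 kb. That summit lay 37364 bp below it, 2497 bp from CLEC4C, with a fold of 4.07 on 5 fragments over the lowest background the list contains, 0.475 fragments. SALL4 (chr20:51782331-51802521), a zinc finger factor, likewise had none in or at the record. Its 2 summits, 15048 and 31959 bp below, both lay inside ATP9A, with folds of 5.73 on 11 fragments and 7.59 on 14. Neither gene was the nearest protein-coding record of any summit.

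KLF4 (chr9:107484852-107489769), a zinc finger factor of differentiating and stem cells, had 3 summits within 100 kb and was the nearest protein-coding record for each. The peak before its start, from 107490155 to 107490413, showed 13 fragments (interval 6.92 to 22.2). Its fold was 3.47. By fragments it stood at the 68.1th percentile of all peaks, and by fold at the 3.16th, because its local background of 3.03 fragments was high. A close pair 19103 and 19227 bp below KLF4, within 1 kb of an end of the RNA gene LINC01509, had folds of 4.08 and 4.07 on 6 fragments each.

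MYC (chr8:127735434-127742951), the growth regulator, had no summit in or at the record. The 1 summit within 100 kb lay 66582 bp below it, 172 bp from an end of the RNA gene LOC105375754, with MYC as the nearest protein-coding record. It rested on 13 fragments, the same number as at KLF4, but over a background of 0.662, which gave a fold of 8.42, at the 89.0th percentile. The pair shows how far fold and fragment number part in this list. Neither CASC11, 1467 bp from MYC, nor the microRNA gene MIR1204, 53011 bp from it, carried a summit.

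LIN28A (chr1:26410817-26429728) had the most summits within 100 kb, 11, but was the nearest protein-coding record for only 1 of them. That summit lay inside the record, 6421 bp from the low-coordinate end. It had 11 fragments (interval 5.49 to 19.7), a fold of 7.39 and a −log10 q of 7.72, the highest of the 6 summits inside members. A stronger one, with a fold of 12.2 on 20 fragments, lay 2459 bp above LIN28A at the ends of DHDDS, an enzyme of dolichol synthesis, and of the RNA gene LOC124903883. The rest were around CRYBG2 and ZNF683 below the gene (5 summits, folds of 4.44 to 10.1) and around HMGN2, a nucleosome-binding protein, above it (4 summits, folds of 4.71 to 5.93).

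LIN28B (chr6:104937026-105083332), the paralogue of LIN28A, was the nearest protein-coding record for 3 of its 5 summits, all inside the record. A pair lay close together at 3288 and 3793 bp from the low-coordinate end. Their folds were 4.66 on 7 fragments and 5.81 on 9, the second being the peak over the printed start. Both were within 1 kb of an end of LIN28B-AS1, the antisense RNA gene that overlaps LIN28B, at 213 and 292 bp, so they could be assigned to either record. The last of the 3, 54232 bp inside, had the highest fold of the 5, 6.31 on 9 fragments. The others lay in HACE1 (4.56 on 6 fragments) and POPDC1 (5.96 on 9). When only annotated starts were counted, the members with a summit within 1 kb were KLF4 and LIN28B, 2 of the 5 with an entry, against 44.4% of all genes with one.

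SOX9 (chr17:72121020-72126416), a progenitor factor of many epithelia, had a single summit within 250 kb, and it lay inside the gene. It was 3083 bp from one end of the record and 2313 bp from the other, with a fold of 4.01 on 8 fragments (interval 3.45 to 15.8), at the 13.5th percentile of fold. SOX4 (chr6:21593751-21598619), of the SOXC group, had none within 250 kb. Its nearest summit lay 355228 bp above, farther than for about 94.7% of protein-coding records. It was the only gene of the 10 with no summit within 100 kb.

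**Figure D2:**
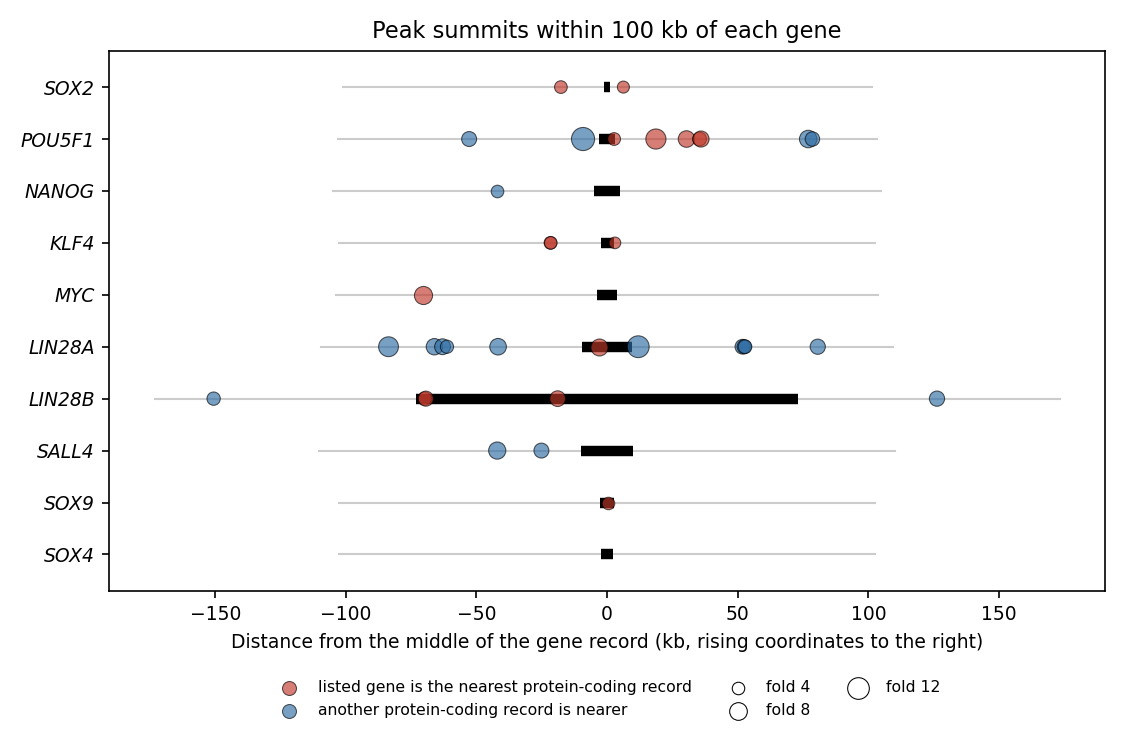
Each row is a gene, with its record as a black bar, the 100 kb on either side as a grey line and distance from the middle of the record in kb on the axis. Circles are peak summits with area proportional to the fold enrichment, red where the gene of the row is the nearest protein-coding record and blue where another is nearer. The 11 summits of LIN28A are blue except for 1, the 3 of KLF4 are red, and SOX4 has none.

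Across the 10 genes, the number of summits within 100 kb had a median of 2, against 4 for all protein-coding records (quartiles 1 and 7). It ran in the order LIN28A 11, POU5F1 9, LIN28B 5, KLF4 3, SOX2 and SALL4 2 each, NANOG, MYC and SOX9 1 each, and SOX4 0. Such counts moved with gene density over all records. Records with no other protein-coding record within 100 kb had a median of 1 summit, those with 1 to 2 had 2, those with 3 to 5 had 3 and those with 6 to 10 had 7. SOX2, KLF4, MYC and SOX9 had no such neighbour, and SALL4 and SOX4 had 1, LIN28B 3, NANOG 5, LIN28A 6 and POU5F1 7.

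Set against their own density band, 5 of the 10 had more summits than its median. KLF4 stood at the 81.6th percentile of its band, LIN28A at the 75.4th, SOX2 at the 70.5th, LIN28B at the 66.7th and POU5F1 at the 64.9th. MYC, SOX9 and SALL4 had the median number of their bands. NANOG, at the 18.9th, and SOX4, at the 11.1th, were the low ones. Over all records POU5F1 and LIN28A had stood at the 81.0th and 86.4th. The bands were not matched for record length, which ran from 2512 bp for SOX2 to 146307 bp for LIN28B.

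**Figure D3:**
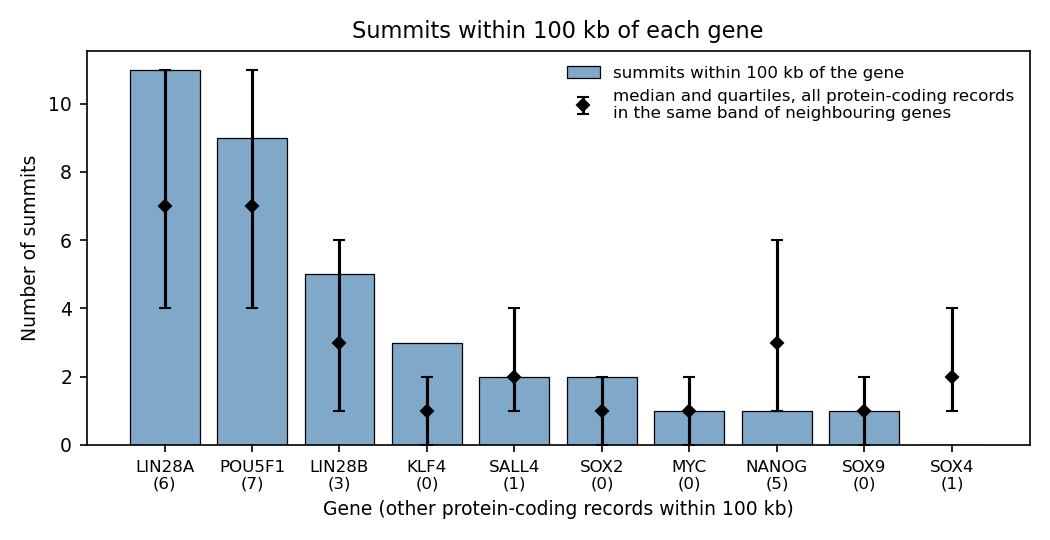
Bars give the number of peak summits within 100 kb of each gene, with the number of other protein-coding records within 100 kb in brackets. Diamonds and whiskers give the median and quartiles over all protein-coding records in the same band of neighbour number. LIN28A (11) and POU5F1 (9) are the tallest bars, over band medians of 7, and SOX4 (0) and NANOG (1) lie below their band medians of 2 and 3.

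Many of the 35 summits were nearer to another gene. A member was the nearest protein-coding record for 16 of them: all 6 inside members, 1 of 1 up to 1 kb outside, 1 of 3 from 1 to 10 kb, 7 of 15 from 10 to 50 kb and 1 of 10 from 50 to 100 kb. The 16 had a median fold of 4.79 and a median of 10 fragments, over a median background of 0.721. The other 19 had 5.93 and 13, over 1.36. Of the 4 summits with a fold above 10, those at CCHCR1 and DHDDS and inside CRYBG2 were among the 19, and the one at PSORS1C3 among the 16. Of the 35, 31.4% lay within 1 kb of an end of some protein-coding gene, against 32.2% of all summits.

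The 35 summits ran from weak to strong within the list, from the 3.16th percentile of fold at KLF4 to the 98.7th at CCHCR1. Their median fold was 5.75 (quartiles 4.50 and 7.06, highest 13.7), against 5.13 over all peaks, and their median fragment number was 12 against 10. POU5F1 and LIN28A accounted for 20 of the 35 and set these medians. Their summits had a median of 13 fragments and a median fold of 6.51, and those of the other 8 genes had 8 fragments and 4.56, with 11 of 15 resting on 10 fragments or fewer. A −log10 q of at least 5 was reached by 15 of the 20 and by 5 of the 15, and over all peaks by 41.2%.

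The local background differed between the neighbourhoods. Its median over the summits within 1 Mb was lowest around SOX4 (0.554, 4 summits), LIN28B (0.579, 11) and SOX2 (0.633, 15), and highest around POU5F1 (1.78, 118) and NANOG (1.38, 25). MYC (0.662, 7 summits), KLF4 (0.716, 27) and SALL4 (1.01, 29) lay between, as did LIN28A (1.18, 80) and SOX9 (1.24, 10). What copy number, open chromatin or mappability contribute to it was not tested.

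**Figure D4:**
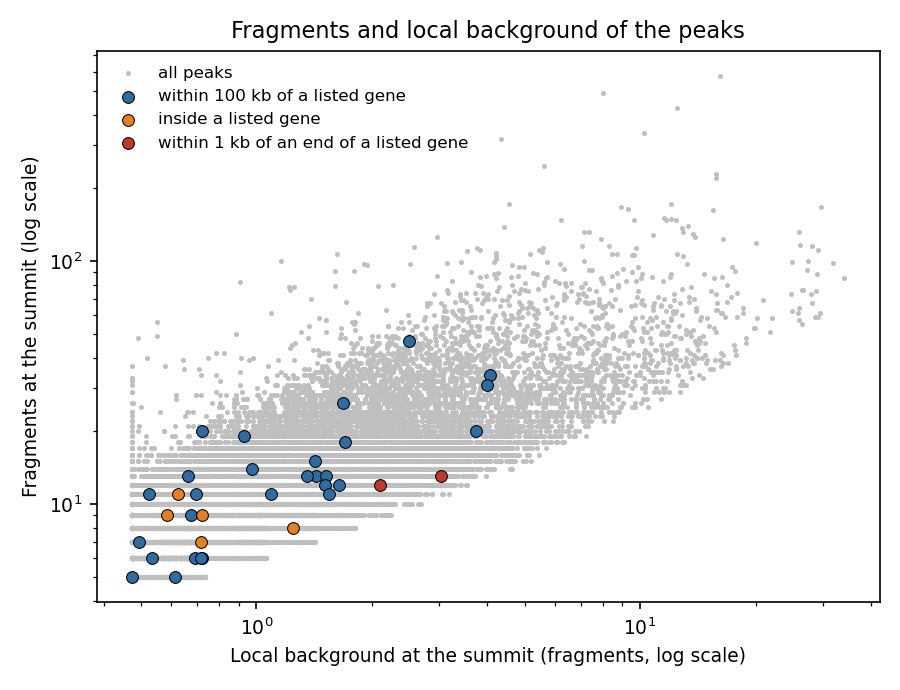
Each point is a peak, with the local background at its summit on the horizontal and the number of fragments there on the vertical axis, both on log scales. Grey points are all 26642 peaks, and the coloured ones are the 35 near listed genes, red within 1 kb of an end (POU5F1, also inside its record, and KLF4), orange otherwise inside and blue elsewhere. The red pair has 12 and 13 fragments over backgrounds of 2.11 and 3.03, at the lower edge of the cloud, and the orange points have 7 to 11 fragments.

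Genes related to the members by family or pathway were taken as 7 lists with 90 distinct genes, of which 34 (37.8%) had a summit at an end, beside 41.5% of all protein-coding records. Their median fold at an end was 6.30, against 6.39 over all records with such a peak. Other genes of the pluripotency network had one in 3 of 20. TRIM28, a corepressor that silences retroelements in stem cells, had a fold of 13.2 on 58 fragments, KLF2 6.50 on 19 and L1TD1 5.18 on 8. CRIPTO (listed as TDGF1) and DNMT3B, a DNA methyltransferase, had none. Most of this network, like NANOG and SOX2, had no peak at an end.

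Family members of the listed genes were mixed. Other SOX genes had a summit at an end in 4 of 16, with SOX12, of the same group as SOX4, at a fold of 7.14 on 23 fragments, SOX17 at 5.01 on 10 and SOX15 at 4.62 on 23. SOX1 and SOX10 had none. Other KLF genes had one in 8 of 16, led by KLF13 (10.3 on 32 fragments), KLF3 (6.77 on 19) and KLF6 (6.51 on 17), with none at KLF12 and KLF14. POU genes had one in 2 of 13, POU2F1 (9.31 on 18), a ubiquitous family member, and POU6F1 (5.40 on 8), with none at POU1F1 and POU2F2. None of SALL1, SALL2 and SALL3 had one.

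Of the 7 lists, the MYC network and the LIN28 and let-7 axis had the highest shares with an end peak. The lists were chosen with earlier results of these data known, so their intervals describe counting error and are no test of enrichment. In the MYC network the count was 11 of 13 (84.6%, Wilson interval 57.8 to 95.7%). MXD1, a repressor that competes with MYC for MAX, had a fold of 10.8 on 30 fragments, MLXIP 8.28 on 17, and MAX, the obligate partner of MYC, 8.16 on 15. MXI1 had 2 summits inside and none at an end, and MYCN had none. In the LIN28 and let-7 axis the count was 7 of 11 (63.6%, interval 35.4 to 84.8%), led by TUT7 (9.84 on 21 fragments), a uridylyl transferase acting on let-7 precursors, ARID3B (9.71 on 18) and DIS3L2 (7.03 on 11), the exonuclease that degrades them. DROSHA and HMGA2 had none at an end. The median number of other protein-coding records within 100 kb was 5 for the MYC network, 3 for the LIN28 and let-7 axis, 2.5 for other SOX genes, 2 for POU genes and 1.5 for other KLF genes. It was 1 for the members, the pluripotency network and the other SALL genes. The share with an end peak was 50% for KLF genes, 25% for SOX genes and 15.4% for POU genes. Over all protein-coding records that share ran from 24.3% with no other such record within 100 kb to 53.4% with 11 or more. The part of gene density in these counts was not tested.

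**Figure D5:**
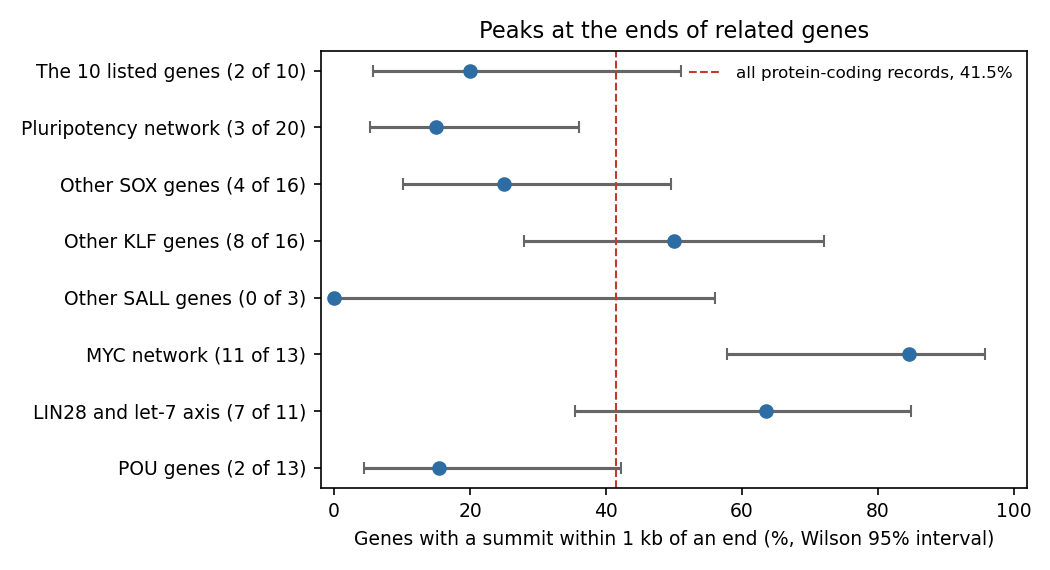
Points give the share of genes with a summit within 1 kb of an end (%), with Wilson 95% intervals, for the 10 listed genes and 7 lists of related genes, and the dashed line marks the 41.5% of all protein-coding records. The listed genes (20%) and the pluripotency network (15.0%) lie left of the line and the MYC network (84.6%) right of it. All lists were chosen with earlier results of these data known, so the intervals are no test of enrichment.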

How the data were processed

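The labels name an antibody recovery of DNA followed by indexed amplification. Bowtie2 2.3.5.1, SAMtools, MACS2 2.2.7.1 and hg38 are named, with no settings, in the submitters' processing notes, and whether the IgG library served as the caller's control was not given in the sources used here. The deposited list gives for each peak a fold enrichment (a ratio to local background), −log10 p and q-values, a score equal to 10 times the −log10 q, and a summit offset. These are the authors' values and rank peaks within this list only.

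Taking fold as (fragments + 1) / (background + 1) and the p as a Poisson tail gave both quantities at each summit. This met the deposited −log10 p to within 0.0001 for all 26642 peaks. In a simulation 500 of 500 peaks were recovered, but they were built from the same forms, so their recovery checks the solving step only. Of the RefSeq records, 718 that break the coordinate order of their chromosome, and so lie on other scaffolds, were left out, leaving 58961. A summit belongs to a gene inside its record, within 1 kb of either end, or within 100 kb. A gene without a summit is one where no peak passed the authors' threshold. The members and lists were chosen with earlier results of these data known.

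All members were named, with up to 3 genes of highest fold and up to 2 without a summit at an end (in alphabetical order) per related list. Wilson and exact Poisson 95% intervals cover counting error only, and the total depth was not given in the sources used here. Alternatives were stricter thresholds, other windows, peak overlap, nearest-gene assignment and annotated starts. Software was pandas 2.3.3, SciPy 1.17.1 and NumPy 2.4.6 under Python 3.11.15, with Matplotlib 3.10.9 for the figures.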

Additional observations from a re-analysis of the deposited data

How the results depend on the processing

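The counts rest on weak peaks and fell at stricter thresholds, by construction, since fewer peaks remain. At a −log10 q of at least 5, 0 genes had a summit at an end, 2 inside and 5 within 100 kb, with 20 summits in all and a median of 0.5 per gene. At 10 these values were 0, 0, 2, 6 and 0, the median highest fold rose from 6.31 to 12.95, the median background from 0.977 to 2.09, and 11 related genes in place of 34 kept a summit at an end. With at least 20 fragments they were 0, 0, 2, 6 and 0, with 12.95, 3.12 and 10. A window of 500 bp left 1 gene with a summit at an end, nearest-gene assignment left 16 of the 35 summits, and 250 kb took in 75. The other 32 of 56 alternative values stayed within 1.5 times the count or inside the binomial interval of the median. Peak overlap in place of the summit and a window of 2 kb left the counts of listed genes as they were. No paired analysis was possible because each antibody has 1 library. Depth limits single peaks: 5 to 13 fragments carry wide intervals.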

Other observations

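Between 100 and 250 kb, POU5F1 and LIN28A had 10 summits each, KLF4 8, SALL4 5, MYC 4 and NANOG 3, and SOX2, LIN28B, SOX9 and SOX4 had none. All 4 of MYC lay above the gene inside PVT1, a long non-coding RNA gene, at 111396, 111741, 117108 and 206892 bp, with folds of 6.04, 4.997, 8.96 and 5.41 on 11, 9, 15 and 8 fragments. MYC was the nearest protein-coding record of each. Of the 8 of KLF4, the strongest, with a fold of 11.5 on 29 fragments, lay 201724 bp below it near RAD23B, and 2 inside the RNA gene LOC105376205 above it, with folds of 4.87 and 4.21, had KLF4 as the nearest protein-coding record.

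The table holds 29 records named as copies of POU5F1, NANOG, KLF4, LIN28A or SALL4, and 1 had a summit inside or within 1 kb. Among the 27 that are pseudogenes this is 3.70%, beside 4.20% of all 16655 pseudogene records. That copy was LIN28AP3 on chromosome 20, with a peak from 11608765 to 11608868 inside it, a fold of 5.04 on 7 fragments and a −log10 q of 3.48. NANOGP8, a copy of NANOG, had its nearest summit 1085 bp away, with a fold of 4.17 on 6 fragments. How reads were shared between copies was not given in the sources used here.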
